A study of Mus musculus with 12 samples.

Results

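The genes described here encode the proteins of the cytosolic ribosome of the mouse. They were chosen by name and type alone: protein-coding genes of the GENCODE M21 annotation whose symbol has the form of a ribosomal protein gene (Rps or Rpl, a number and at most a short letter suffix), and Rpsa, Rplp0, Rplp1 and Rplp2. The rule found 81 of 54115 genes, of which 50 belong to the large and 31 to the small ribosomal subunit. RNA was sequenced from eosinophils, granulocytes that circulate in blood and settle in tissues such as fat. The 12 libraries came from 5 untreated wild-type male FVB/NJ mice aged 20 weeks on chow, in 3 groups of 4. Blood was taken from mice 2807, 2771, 2683 and 2668. Gonadal fat came from mice 2846, 2807, 2683 and 2668, while mice 2846, 2807, 2771 and 2668 gave subcutaneous fat. Wherever 4 library values are listed, the mice stand in that order. All cells had been sorted as live cells positive for CD45, CD11b and Siglec-F after red cell lysis. Fat had first been digested for 45 min at 37 C with 1 mg/mL collagenase type II, a step that is not given for blood, so that tissue and digestion cannot be told apart in a comparison with blood. The comparisons ask how the RNA of eosinophils resident in each fat depot differs from that of circulating ones, and how the depots differ from each other.

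A ribosome is built from a small subunit, which reads the mRNA, and a large subunit, which joins amino acids. Each subunit consists of ribosomal RNA and a fixed set of proteins, most of which are present in a single copy per ribosome. Ribosomal protein mRNAs commonly begin with a cytosine followed by a run of pyrimidines, the 5′ terminal oligopyrimidine (TOP) tract, through which mTOR and the binding protein LARP1 control their translation. The genes are also known for the many processed pseudogenes they have left in mammalian genomes, and several carry small nucleolar RNA (snoRNA) genes in their introns.

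Libraries held 12427093 to 23617436 estimated reads assigned to genes, apart from the subcutaneous library of mouse 2846 with 4364566. In that library mitochondrial ribosomal RNA took 28.1% of gene reads, and 4.66% to 8.79% in the others. Levels between libraries are given as CPM, gene reads brought to a common library size with scaling by the TMM method. Of 10 eosinophil marker genes 4 (Ccr3, Ear1, Ear2 and Ear6) were lower and 0 higher in each depot than in blood, with medians of -0.86 in gonadal and -0.98 in subcutaneous fat. Epx and Prg2 were at 0 in 1 library, the subcutaneous one of mouse 2846, and the other 8, Siglecf and Il5ra among them, had reads in every library. Ear1, Ear2 and Ear6 had log2 fold changes of -4.62 to -2.68. The summed level of all 10 was 3783 to 4719 CPM in blood, 1597 to 4303 in gonadal and 1362 to 4091 in subcutaneous libraries. Markers of other cells moved with the groups. Of 10 neutrophil markers 8 were tested and 6 were lower in each fat depot than in blood. Their sum was 2915 to 4257 CPM in blood, 374 to 802 in gonadal and 409 to 1296 in subcutaneous libraries, with Ly6g at 0 in 9 libraries, Camp in 10 and Ngp in 4. Of 12 macrophage markers 8 were higher in gonadal and 9 in subcutaneous libraries. Their sum was 385 to 946 CPM in blood, 1287 to 4838 in gonadal and 1495 to 5717 in subcutaneous libraries, and Lyve1 was at 0 in 3 libraries. Of 13 T and NK cell markers 6 were lower in gonadal and 3 higher in subcutaneous libraries than in blood, and 9 were at 0 in at least 1 library. Their sum was 16.9 to 58.8 CPM in blood, 8.98 to 67.9 in gonadal and 35.7 to 285 in subcutaneous libraries. Of 8 B cell markers 6 were lower in gonadal and 1 in subcutaneous libraries. Of 6 adipocyte markers 4 were tested and 3 were higher in each depot, and 7 of 9 fibroblast and progenitor markers were higher in each. The highest sum of the latter, 5728 CPM, was that of the subcutaneous library of mouse 2846, against 338 to 908 CPM in the other libraries. Monocyte, dendritic, endothelial, erythroid, mast cell and platelet lists had at most 3 calls each. The gonadal library of mouse 2683 had the highest monocyte sum of all 12, 6701 CPM, of which Fn1 made 6195 CPM. It also had the highest macrophage sum (4838 CPM) and the lowest eosinophil sum (1597 CPM) of the gonadal libraries. The blood library of mouse 2771 had an erythroid sum of 8353 CPM, against 7.65 to 230 CPM in the other libraries. The part of these cells in the results was not tested.

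Reads of the 81 genes were a small share of each library, and the share was lowest in subcutaneous fat. The members took 1.20%, 0.88%, 1.08% and 1.08% of gene reads in the blood libraries, a mean of 1.06% ± 0.132 (SD, n = 4). Gonadal libraries had 0.967%, 0.774%, 1.40% and 0.731%, with a mean of 0.968% ± 0.307 (SD, n = 4). Subcutaneous libraries had 0.534%, 0.772%, 0.87% and 0.643%, with a mean of 0.705% ± 0.147 (SD, n = 4). Every subcutaneous library was below every blood library, but only narrowly, with the highest at 0.87% and the lowest of blood at 0.88%. As a share of reads of nuclear protein-coding genes these groups overlapped, with 0.896% to 1.2% in subcutaneous and 1.14% to 1.53% in blood libraries. In the share of all gene reads the gonadal libraries overlapped both groups: the gonadal library of mouse 2683 was the highest of all 12. Without it the gonadal mean was 0.824%. In sorted bulk RNA, fewer cells that express a gene and less of its RNA per cell cannot be told apart. The libraries were made from total RNA with a stranded low-input kit, and 19.8% to 26.6% of the members' reads were assigned to transcripts that are not annotated as protein-coding, among them forms with a retained intron.

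**Figure D1:**
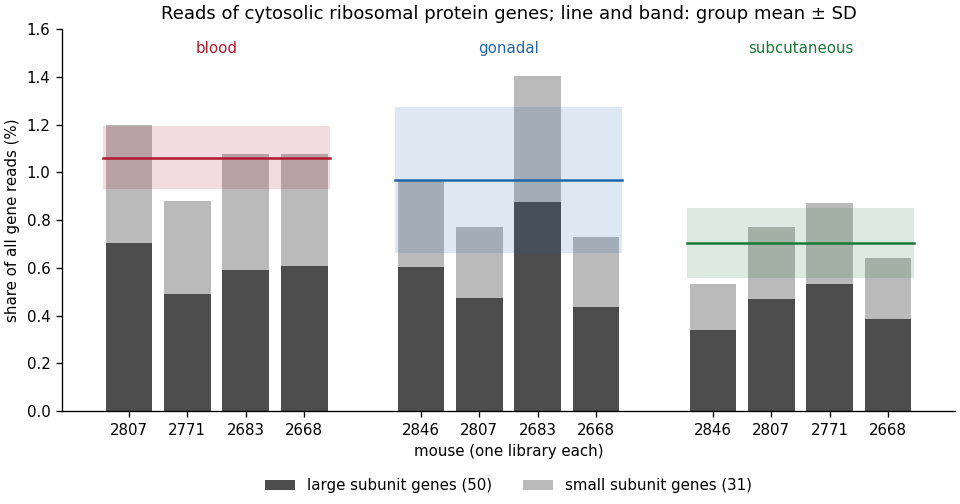
Share of all gene reads (%) assigned to cytosolic ribosomal protein genes in each of the 12 libraries, stacked by subunit (dark, large subunit; light, small subunit), with the group mean and SD as line and band. The 4 subcutaneous bars end between 0.534% and 0.87%, below all blood bars, and the gonadal bar of mouse 2683 reaches 1.40%.

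Levels between genes were compared per transcript length, with the deposited TPM averaged over the 12 libraries. Rps9, which encodes a small subunit protein (uS4) that joins ribosome assembly early, stood first with 513 TPM (range 143 to 1040). It was followed by Rpl13a with 343 TPM (215 to 541), Rpl41 with 243 (118 to 391), Rplp1 with 241 (131 to 348) and Rps27 with 227 (106 to 362). The ranges of neighbours in this order overlapped over libraries. These sums include transcripts that are not protein-coding. Such transcripts held 91.5% of the reads of Rpl13a, 2.98% of Rps9, 4.58% of Rpl41 and 9.56% of Rps27. Rpl13a encodes a large subunit protein with a known role in silencing inflammatory mRNAs, Rpl41 the shortest ribosomal protein, and Rplp1 an acidic protein of the stalk that recruits elongation factors. The median of the 78 members that passed the low-count filter was 66.9 TPM. The lowest of these were Rpl12 with 7.07 TPM, Rps27l with 5.58 and Rps7 with 3.33, so that the highest level was 154 times the lowest.

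Many members of low level share their sequence with pseudogenes. For 68 members at least 1 other gene held 50% or more of the 31-base words of their coding sequence; there were 285 such near-identical copies, of which 268 are annotated as pseudogenes, and 33 members had no 31-base word of their own. In 9 of the 10 tested members of lowest TPM, the copies together held more reads than the gene itself. That was so in none of the 10 highest. Rps7 had a mean of 5.80 CPM in blood, while its copy Gm6472 had 143 CPM there. Rpl5 (84.9 CPM in blood) had the copy Gm15500 with 295 CPM, and Rps23 had Rps23-ps1 with 186 CPM. A read from such a sequence cannot be assigned with certainty, so the level of the gene alone is uncertain for 14 members with more reads in copies than of their own, among them Rps7, Rpl34, Rps2, Rpl12, Rpl5, Rpl3, Rpl36al, Rpl27, Rps23 and Rpl36a. Rps9 had 1 copy, Gm5905, with 1.39 to 5.92 CPM.

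Of the 81 members 3 did not pass the filter. Rpl10l, a retrogene that replaces Rpl10 in male germ cells, had no read in any library, which allows a level of up to 0.0158 CPM over the 12 libraries (3 counts, counting error only). Rpl39l, a testis-enriched form of Rpl39, had 0.0679 CPM in 1 gonadal and 0.898 CPM in 1 subcutaneous library, both of mouse 2846. Rpl3l, the striated muscle form of Rpl3, was seen in 3 blood libraries at 0.149 to 0.475 CPM. The standard copies were present throughout: Rpl10 at a mean of 174 CPM, Rpl39 at 26.9 CPM and Rpl3 at 28 CPM in blood. Rps27l, a p53-responsive copy of Rps27, ranged from 1.66 to 9.54 CPM, against 74.5 to 196 CPM for Rps27. Rpl36al, the intronless copy of Rpl36a, had 12 ± 1.63 CPM and Rpl36a 22.9 ± 8.19 CPM in blood (SD, n = 4), but both share all 31-base words with other genes. Rps4x, the X-linked form of a small subunit protein, had 144 ± 29.0 CPM in blood (SD, n = 4).

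Transcript starts were read from the RefSeq promoter table for GRCm38.p6, and 61 of the 81 genes were found there. The motif searched on the gene's own strand was a C within 2 bases of the annotated start followed by at least 4 C or T. It was present for 21 of the 61 genes (34.4%) and for 2863 of all 27025 genes of the table (10.6%). A match is a property of the annotated start only. A C followed by at least 4 C or T lies just outside the limit of 2 bases in the window of Rps9, so its lack of a match rests on that limit. Rpl27, Rpl37a, Rps23, Rps25 and Rps3, whose RNA also differed between groups, had no match. Shown here are 30 bases around the start (15 before, 15 from it). They are given for 4 members whose RNA differed between groups, chosen because they have the tract, marked in capitals. Rps9 is added, which has none within 2 bases of this start.
Rps27: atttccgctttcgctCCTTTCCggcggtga
Rps6: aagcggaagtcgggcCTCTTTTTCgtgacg
Rpl38: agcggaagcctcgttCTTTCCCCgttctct
Rplp2: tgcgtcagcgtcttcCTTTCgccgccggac
Rps9: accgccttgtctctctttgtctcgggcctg
These windows lie at chr3:90213634-90213663 (minus strand), chr4:86857353-86857382 (minus), chr11:114668565-114668594 (plus), chr7:141447636-141447665 (plus) and chr7:3704026-3704055 (plus).

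In gonadal fat, few ribosomal protein genes differed from blood. Of the 78 tested members 2 were higher and 4 lower, and all 4 lower ones, Rps9, Rps27a and Rps27 among them, encode small subunit proteins. Over all 15367 genes tested, 15.4% were higher and 11.6% lower (edgeR quasi-likelihood test, adjusted p under 0.05), so with all libraries the members' share was below the background in both directions. The median log2 fold change of the 78 was 0.0076, against 0.076 over all genes tested, and 62 of them lay within 0.5 of 0.

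Rps9 (ENSMUSG00000006333, chr7:3703993-3706897 in mm10, plus strand) had the largest fall in gonadal fat. Blood libraries had 1071, 1049, 1330 and 1254 CPM. Gonadal libraries had 462, 433, 518 and 446 CPM, and subcutaneous libraries had 335, 511, 409 and 471 CPM. All 8 fat libraries lay far below the lowest blood library. The log2 fold change was -1.34 (SE 0.171, adjusted p = 0.000194 by edgeR) in gonadal and -1.45 (SE 0.171, adjusted p = 0.000118) in subcutaneous fat; the comparisons share the blood libraries. Most of these reads came from 1 protein-coding transcript, ENSMUST00000006496, with 814 to 1121 CPM in blood and 322 to 477 CPM in fat, and 2.98% of Rps9 reads were outside protein-coding transcripts. The call held under all 23 alternatives run, with values from -1.42 to -1.28 in gonadal and -1.88 to -1.32 in subcutaneous fat.

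Rps27a, whose product is cleaved into ubiquitin and a small subunit protein (eS31), was also lower in both depots. Blood had 208, 210, 303 and 280 CPM, gonadal fat 143, 116, 183 and 138, and subcutaneous fat 112, 132, 141 and 144. No fat library reached the lowest blood library. The log2 fold change was -0.79 (SE 0.178, adjusted p = 0.00703 by edgeR) in gonadal and -0.92 (SE 0.179, adjusted p = 0.00311) in subcutaneous fat, and it was -0.88 and -1.09 when reads of its 3 copies were added. The copy Gm8430 itself had 119 CPM in blood, 55.2 in gonadal and 41.4 in subcutaneous libraries. Clhc1 overlaps Rps27a on the other strand, and reads of the pair can be told apart only if the quantification used strand, on which the labels are silent.

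Rps27 was lower as well. It encodes a zinc-finger protein (eS27) of the small subunit. Its libraries had 147, 139, 196 and 165 CPM in blood, 109, 90, 111 and 74.5 in gonadal and 91.9, 120, 138 and 98.3 in subcutaneous libraries. Every fat library was below every blood library for this gene. Its log2 fold change was -0.74 (SE 0.181, adjusted p = 0.00989 by edgeR) in gonadal fat, a call kept under all alternatives, and -0.53 (SE 0.181, adjusted p = 0.0464) in subcutaneous fat, a call lost under 11 of 23, among them the fit with mouse as a replicate block (-0.45, adjusted p = 0.128). The subcutaneous call ended without blood 2668, 2683 or 2771 or subcutaneous 2668, 2807 or 2846.

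The 2 members higher in gonadal fat were Rps20 and Rplp2. Rps20 (uS10), a protein of the head of the small subunit, had 50.1, 31.3, 43.0 and 41.2 CPM in blood, 80.8, 57.1, 132 and 49.8 in gonadal and 48.2, 47.3, 72.0 and 55.5 in subcutaneous libraries. Its groups met at the edge, with the lowest gonadal library just under the highest of blood. Gonadal fat differed by a log2 fold change of 0.95 (SE 0.279, adjusted p = 0.0244 by edgeR), and 67.1% of its reads were outside protein-coding transcripts. With protein-coding transcripts only it was 1.09 (adjusted p = 0.0163). Rplp2, the partner of Rplp1 in the stalk, had 64.3, 44.2, 51.5 and 61.3 CPM in blood, 101, 74.1, 97.4 and 69.7 in gonadal and 55.6, 80.5, 82.7 and 83.1 in subcutaneous libraries. The gonadal libraries were all above blood, and the subcutaneous library of mouse 2846 was the only fat library within the range of blood. The log2 fold change was 0.63 (SE 0.184, adjusted p = 0.0237 by edgeR) in gonadal fat. Neither rise held with mouse as a replicate block (Rps20 0.86, adjusted p = 0.0645; Rplp2 0.63, adjusted p = 0.0811), which left 0 members higher and 6 lower (7.69%, against 9.21% of all genes), with Rps14 (-0.56, adjusted p = 0.0451) among those added. Both calls also ended without gonadal 2683 or 2846 and without blood 2683 or 2771. That of Rps20 was lost without blood 2668 too, and that of Rplp2 with protein-coding transcripts only (0.47, adjusted p = 0.113).

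The counts of this comparison depended on the gonadal library of mouse 2683, the one of highest member share. Without it 13 members were lower (16.7%, against 9.41% of all genes) and 0 higher (10.7% of all genes), so that the share of lower members was then above that of all genes, and the median of the members was -0.25, against 0.033 for all genes.

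**Figure D2:**
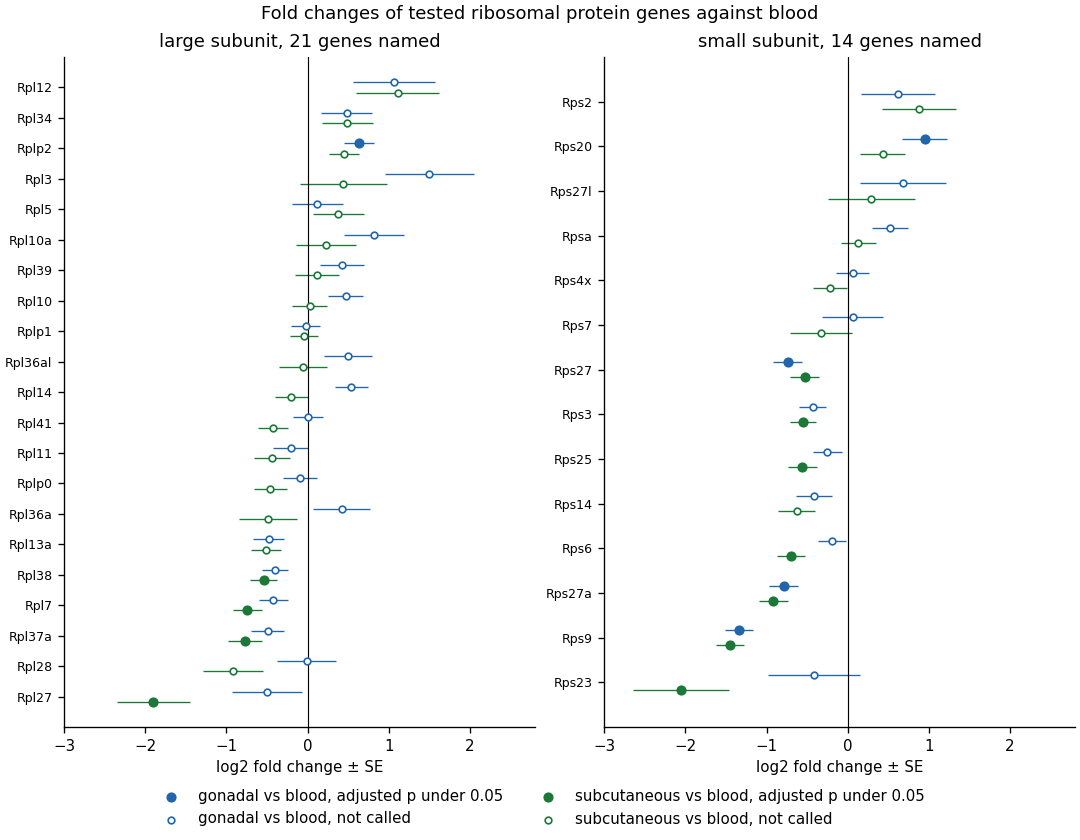
Log2 fold change against blood, with its SE, for the 35 tested members named in the text, in order of the subcutaneous value, with large subunit genes on the left and small subunit genes on the right (blue, gonadal; green, subcutaneous; filled points, adjusted p under 0.05). Most points lie within 1 of 0, gonadal values scatter on both sides of 0, and subcutaneous values lie mostly to its left.

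In subcutaneous fat more members were lower than blood. Of the 78 tested, 14 fell and 0 rose. The 9 small subunit genes that fell include Rps9, Rps27a, Rps27, Rps25, Rps6, Rps3 and Rps23, and the 5 large subunit genes include Rpl7, Rpl37a, Rpl38 and Rpl27. Of all genes tested 11.4% were lower and 15.4% higher. The 14 are 17.9% of the tested members. An unadjusted p under 0.05 was found for 29 of the 78 (37.2%), against 40% of all genes, counting both directions. DESeq2 called 20 members, of which 1, Rplp2, was higher, and 34.4% of all genes in either direction. The median log2 fold change of the tested members was -0.35, against 0.066 over all genes, and 64 of the 78 values were below 0. In 20 of the 78 every subcutaneous library lay below every blood library, while the share over all genes tested was lower, 15.7%.

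Among the large subunit genes Rpl7 was the firmest. It encodes the large subunit protein uL30. Blood libraries had 301, 254, 316 and 318 CPM, gonadal ones 237, 200, 285 and 167, and subcutaneous ones 167, 211, 179 and 154. All subcutaneous libraries were below blood, while 1 gonadal library was within its range. The subcutaneous log2 fold change was -0.74 (SE 0.177, adjusted p = 0.00962 by edgeR), and the call held under all 23 alternatives. Gonadal fat had -0.42 (adjusted p = 0.0955).

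A further small subunit gene that fell was Rps6. It encodes eS6, the ribosomal substrate of S6 kinase, and had 147, 127, 168 and 129 CPM in blood, 108, 99.9, 171 and 121 in gonadal and 79.4, 88.9, 84.9 and 97.8 in subcutaneous libraries. Its subcutaneous libraries lay below all others of both groups. Against blood it had a log2 fold change of -0.70 (SE 0.176, adjusted p = 0.012 by edgeR), and -0.35 (adjusted p = 0.121) when reads of its 6 copies, chiefly Rps6-ps4, were added.

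Other called genes lost their call under some settings. Rpl37a (eL43) had a log2 fold change of -0.77 (adjusted p = 0.0164 by edgeR), Rpl38 (eL38) -0.54 (0.0293), Rps25 (eS25) -0.56 (0.0342) and Rps3 (uS3) -0.55 (0.0275). Rpl38 is known for its part in translating Hox mRNAs, Rps25 for initiation at internal entry sites, and Rps3 for a second role in DNA repair. The call was lost under 2 alternatives for Rpl37a, 9 for Rpl38, 7 for Rps25 and 8 for Rps3. Single libraries whose removal ended a call were blood 2668, 2683 and 2807 and subcutaneous 2668 and 2807 for Rpl38, blood 2668 and 2683 and subcutaneous 2668 and 2846 for Rps25, and blood 2668 and 2683 and subcutaneous 2807 and 2846 for Rps3, with adjusted p up to 0.111. Rps3 had 0.18 (adjusted p = 0.615) with an offset for effective length, and Rpl37a -0.40 (adjusted p = 0.131) with protein-coding transcripts only. With mouse as a replicate block Rpl37a (-0.67, adjusted p = 0.0518), Rpl38 (-0.52, 0.0824), Rps25 (-0.43, 0.088) and Rps3 (-0.45, 0.0788) were not called, and 10 members were lower in all (12.8%, against 8.6% of all genes), Rps14 (-0.61, 0.0389) among them.

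Gonadal 2683 enters this comparison only through the shared spread, filter and scaling. When it was left out, 28 members were lower in subcutaneous fat (35.9%, against 12.2% of all genes). In that fit 1 member, Rps2, was higher (1.28%, against 14.4% of all genes). The count of lower members was 8 without blood 2683 (10.3%, against 7.29% of all genes) and 9 without subcutaneous 2668 (11.5%, against 10.2%). With subcutaneous 2846 and blood 2807 both left out there were 9 lower (11.5%, against 9.27% of all genes). In that fit 1 was higher (Rplp2, 1.28%, against 14% of all genes), and the median of the members was -0.24. Calls for Rps9, Rps27a and Rpl7 held in each of these.

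**Figure D3:**
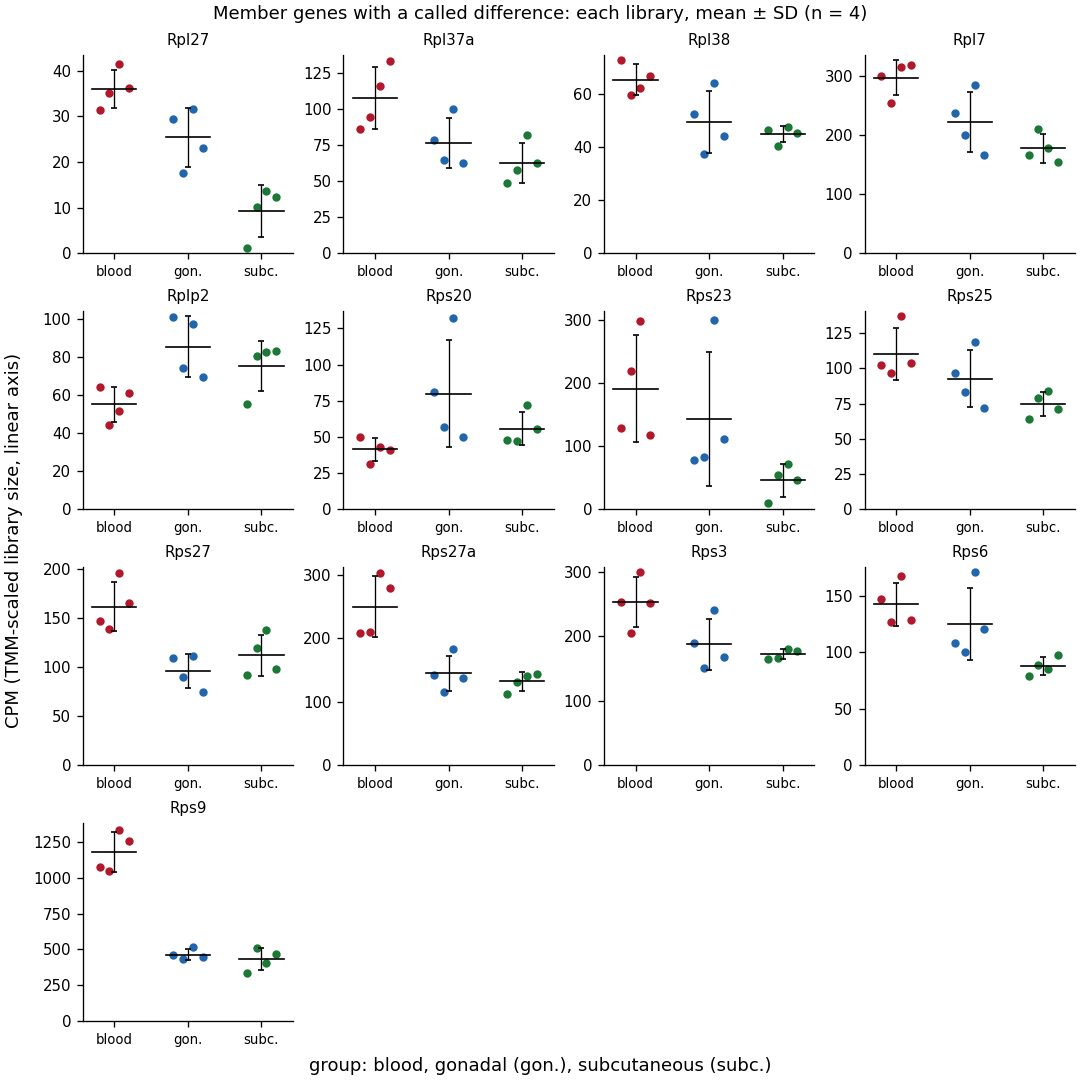
CPM (linear axis, TMM-scaled) in each library for 13 of the 16 members called in any comparison, by group, with mean and SD (n = 4). Rps9 shows the widest gap, with blood libraries between 1049 and 1330 CPM and all fat libraries between 335 and 518 CPM, while Rps20 and Rps23 show a single high gonadal library.

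The largest subcutaneous fold changes, those of Rps23 and Rpl27, were tied to how reads were assigned. Rps23 (uS12), a protein of the decoding centre, had 128, 219, 298 and 118 CPM in blood, 78.1, 82.7, 299 and 111 in gonadal and 10.3, 53.7, 72.0 and 46.5 in subcutaneous libraries. The subcutaneous libraries were below all others, and their log2 difference from blood was -2.05 (SE 0.59, adjusted p = 0.0254 by edgeR). Of its reads 93.5% were outside protein-coding transcripts, nearly all on the processed transcript ENSMUST00000224463, with 107 to 283 CPM in blood and 0 to 61.8 CPM in subcutaneous libraries. Its protein-coding transcript had 7.79 to 11.6 CPM in blood and 5.27 to 15 CPM in subcutaneous libraries. With protein-coding transcripts only the log2 fold change was 0.026 (SE 0.324, adjusted p = 0.965), and with reads of its 6 copies added it was -0.46 (SE 0.188, adjusted p = 0.0848). The call was also lost without blood 2683 (-1.76), blood 2771 (-1.98) or subcutaneous 2668 (-2.04).

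Rpl27 (eL27) had 31.4, 35.0, 41.4 and 36.2 CPM in blood, 29.4, 17.5, 31.6 and 23.0 in gonadal and 1.08, 10.2, 13.7 and 12.3 in subcutaneous libraries. The subcutaneous libraries were again below all others, lowest in the shallow library of mouse 2846. Their log2 fold change was -1.90 (SE 0.45, adjusted p = 0.00947 by edgeR). Its copy Gm11518 had 48.8 CPM in blood, 37.2 in gonadal and 46.4 in subcutaneous libraries, and with copies added the value was -0.60 (SE 0.233, adjusted p = 0.0702). Rpl3 (uL3), near the peptidyl transferase centre, passed the threshold only once copies were added or with another tool or set of libraries. Its libraries had 33.6, 33.6, 28.3 and 16.5 CPM in blood, 69.1, 62.6, 134 and 51.6 in gonadal and 8.20, 20.0, 53.2 and 69.0 in subcutaneous fat. Gonadal libraries lay above all blood libraries, yet the log2 fold change of 1.5 (SE 0.545) had an adjusted p of 0.0607 by edgeR; with copies added it was 1.28 (SE 0.323, adjusted p = 0.0124), and DESeq2 gave an adjusted p of 0.0139. Syngr1 overlaps Rpl3 on the other strand.

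**Figure D4:**
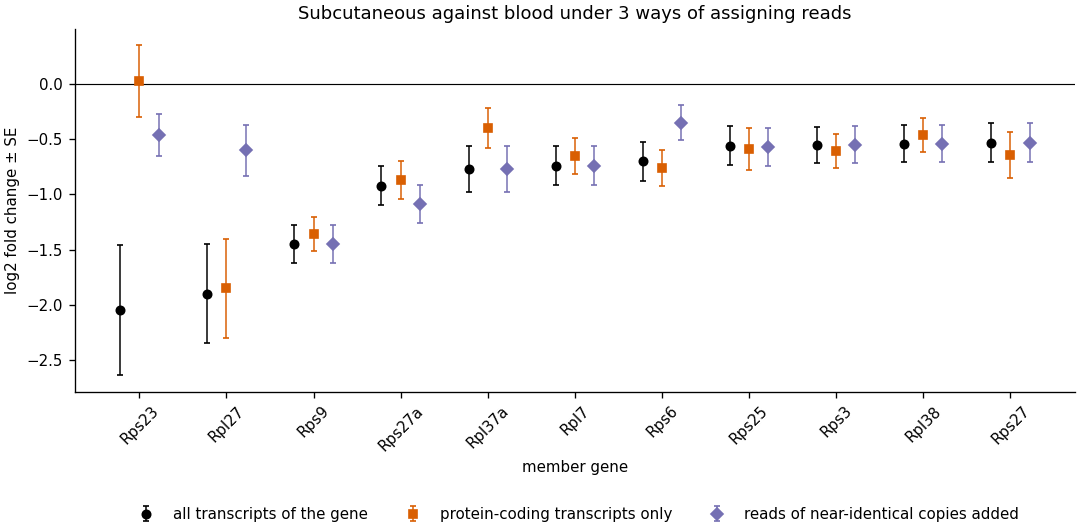
Log2 fold change of subcutaneous fat against blood, with its SE, for 11 of the 14 members called lower, under 3 ways of assigning reads: all transcripts of the gene, protein-coding transcripts only, and reads of near-identical copies added. Rps23 moves from -2.05 to 0.026 or -0.46 and Rpl27 from -1.90 to -0.60 with copies added, while Rps9, Rps27a and Rpl7 move little.

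The balance of reads between the subunits was lower in blood than in fat, and the gap was smaller without Rps9. Large subunit genes had 1.43, 1.27, 1.22 and 1.3 times the reads of small subunit genes in blood (mean 1.31 ± 0.0889, SD, n = 4). The ratio was 1.66, 1.57, 1.67 and 1.5 in gonadal (mean 1.6 ± 0.0818, SD, n = 4) and 1.74, 1.56, 1.58 and 1.52 in subcutaneous libraries (mean 1.6 ± 0.0976, SD, n = 4). No fat library reached down to the highest blood library. Rps9 alone took 11.5% ± 1.08 of member reads in blood, 5.22% ± 0.977 in gonadal and 5.80% ± 1.04 in subcutaneous fat (SD, n = 4). With Rps9 left out the ratio was 1.77 ± 0.0915 in blood, 1.85 ± 0.0612 in gonadal and 1.88 ± 0.0883 in subcutaneous fat (SD, n = 4), and the ranges overlapped. From deposited TPM, summed with Rps9, the ratio was 1.12 to 1.29 in blood, 1.37 to 1.48 in gonadal and 1.39 to 1.58 in subcutaneous libraries. The medians of the subunits were close, while their shares of called genes were further apart. In gonadal fat 4 of 31 small (12.9%) and 0 of 47 large subunit genes were lower, against 11.6% of all genes, and 1 of each was higher. In subcutaneous fat 9 of 31 (29%) and 5 of 47 (10.6%) were lower, against 11.4%, and 0 were higher. The difference between the subunits was not tested. The median log2 fold change was 0.036 for large and -0.10 for small subunit genes in gonadal fat, and -0.36 and -0.35 in subcutaneous fat. The gonadal difference of 0.14 between the medians was -0.0018 without the gonadal library of mouse 2683 and -0.00071 with mouse as a replicate block.

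**Figure D5:**
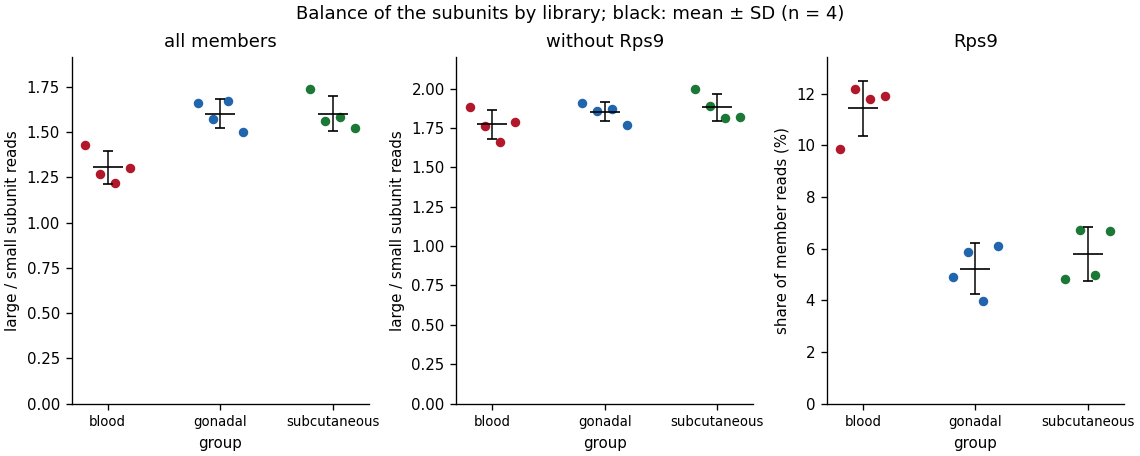
Ratio of large to small subunit reads with all members and without Rps9, and the share of Rps9 in member reads (%), for each library by group with mean and SD (n = 4). The ratio of blood libraries (1.22 to 1.43) lies below that of all fat libraries (1.5 to 1.74), and without Rps9 the 3 groups overlap.

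Other members of known special roles did not pass the test. The stalk base protein gene Rplp0 had 265 ± 42.9 CPM in blood, 249 ± 73.4 in gonadal and 193 ± 26.4 in subcutaneous fat, and Rplp1 had 224 ± 32.0, 220 ± 44.0 and 218 ± 29.8 (SD, n = 4). For Rplp1 the log2 fold changes were -0.025 (SE 0.175) and -0.042 (SE 0.175). Rpl5 and Rpl11, which form with 5S ribosomal RNA the particle that inhibits MDM2, had 0.12 (SE 0.313) and -0.21 (SE 0.218) in gonadal and 0.38 (SE 0.314) and -0.44 (SE 0.219) in subcutaneous fat. The subcutaneous library of mouse 2846 was high for Rpl5, with 195 CPM against 56.8 to 119 CPM elsewhere. Of these 195 CPM, 191 were on the retained-intron transcript ENSMUST00000140659, and 71.3% of Rpl5 reads over all libraries were outside protein-coding transcripts. The protein-coding transcript ENSMUST00000082223 had 23.0 to 26.2 CPM in blood, 15.9 to 34.9 in gonadal and 2.15 to 15.9 in subcutaneous libraries. Rpsa, the laminin receptor protein of the small subunit, had 0.52 (SE 0.218, adjusted p = 0.0935 by edgeR) in gonadal fat, where 63.8% of its reads over all libraries were outside protein-coding transcripts.

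Of the remaining members at the ends of the order, Rpl12, at the base of the stalk, had the highest subcutaneous value, 1.11 (SE 0.51, adjusted p = 0.126 by edgeR), and 1.06 (SE 0.506) in gonadal fat. Its libraries ranged from 8.47 to 15.3 CPM in blood, from 11.1 to 43.6 in gonadal and from 13.7 to 57.3 in subcutaneous fat. Of Rpl12 reads 68.9% were outside protein-coding transcripts. In the subcutaneous library of mouse 2846, 50.9 of its 57.3 CPM were on a retained-intron transcript. Its protein-coding transcript ENSMUST00000126610 had 0.391 to 6.9 CPM in blood and 0 to 6.14 CPM in subcutaneous libraries. Rps2 had 0.88 (SE 0.457) in subcutaneous fat, Rpl34 0.49 (SE 0.314), and Rpl10a, of the L1 stalk, 0.82 (SE 0.37) in gonadal fat. None passed the threshold. Of Rps2 reads 51.2% were outside protein-coding transcripts. In the subcutaneous library of mouse 2846, 40.3 of its 59.8 CPM were on a retained-intron transcript. Rpl13a had -0.48 (adjusted p = 0.076) in gonadal and -0.51 (adjusted p = 0.06) in subcutaneous fat, with 91.5% of its reads on transcripts that are not protein-coding; 4 snoRNA genes lie within it. Rpl41 had 0.0038 and -0.43, with no call. Among the paralogs, none of which was called, Rps27l had 0.68 (SE 0.533) in gonadal fat, Rpl36al 0.50 (SE 0.296) and Rpl36a 0.42 (SE 0.352). Their differences from the standard copies were not tested.

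Between the depots no member was called. Of all genes tested 0% were higher and 0.00651% (1 gene) lower in gonadal than in subcutaneous fat. An unadjusted p under 0.05 was found for 13 of the 78 members by edgeR (16.7%, against 8.03% of all genes). It was found for 13 by DESeq2 too (16.7%, against 10.1% of all genes). DESeq2 also called 0 members, while it called 0.273% of all genes higher and 0.716% lower. By edgeR an unadjusted p under 0.05 was found for 6 members (7.69%, against 5.07% of all genes) with mouse as a replicate block. Without gonadal 2683 it was found for 5 (6.41%, against 5.25%). The median log2 fold change was 0.32, against -0.013 over all genes, with 73 of 78 members above 0 and 48.6% of all genes. Without the gonadal library of mouse 2683 the median was 0.10, with 62 members above 0. The highest values were those of Rps23 (1.63, SE 0.583), Rpl27 (1.40, SE 0.445), Rpl3 (1.06, SE 0.54) and Rpl28 (0.92, SE 0.367), and the lowest those of Rpl5 (-0.26, SE 0.314), Rps2 (-0.26, SE 0.453), Rps27 (-0.22, SE 0.18) and Rpl12 (-0.049, SE 0.503). In 4 of the 78 members, Rps23, Rpl27, Rps6 and Rpl14, every gonadal library was above every subcutaneous one. The share over all genes tested was lower, 1.94%. These gaps depended on how reads were assigned. With reads of copies added, the lowest gonadal library was below the highest subcutaneous one for Rps23 (264 and 320 CPM), Rpl27 (44.8 and 65.7) and Rps6 (202 and 221). Of Rpl14 reads 50.6% were outside protein-coding transcripts. Its protein-coding transcript ENSMUST00000165532 had 26.8 to 76.8 CPM in gonadal and 38.1 to 59.2 CPM in subcutaneous libraries.

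Genes around the ribosome were followed on 6 lists, whose counts are read against the shares of all genes given above (15.4% higher and 11.6% lower in gonadal, 15.4% and 11.4% in subcutaneous fat). Of 5 ribosomal proteins outside the naming rule, Fau, a ubiquitin-like fusion that yields the small subunit protein eS30, fell from 576 ± 88.4 CPM in blood to 314 ± 26 in gonadal and 300 ± 45.0 in subcutaneous fat (SD, n = 4). Its log2 fold changes were -0.87 (SE 0.163, adjusted p = 0.00229 by edgeR) and -0.94 (SE 0.163, adjusted p = 0.0016). In subcutaneous fat Rpl22l1 rose by 1.35 (SE 0.251) and Rpl7l1 fell by 0.59 on the log2 scale (SE 0.147). Rack1, a scaffold on the small subunit, was not called in either.

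On the list of 47 translation factors 8 rose (17%, near the 15.4% of all genes) and 2 fell (4.26%) in gonadal fat, and 5 rose (10.6%) and 4 fell (8.51%) in subcutaneous fat. Eif4a1, the cap-complex helicase, rose by 1.54 (SE 0.147) and 1.56 (SE 0.147), the cap-binding gene Eif4e by 1.00 (SE 0.273) in gonadal and the release factor Etf1 by 1.00 (SE 0.32) in subcutaneous fat. Eif3f and Eif3h, subunits of the scaffold that binds the small subunit, fell by 0.81 and 0.61 in gonadal and by 1.08 and 0.89 in subcutaneous fat on the log2 scale. Of 22 other mRNAs known for a TOP tract, 3 rose and 3 fell in gonadal fat (13.6% each), and 3 rose (13.6%) and 5 fell (22.7%) in subcutaneous fat. Those that rose most were the snoRNA host genes Gas5 (1.25 and 1.48) and Snhg1 (1.21 and 1.91), whose spliced RNAs encode no protein. Fau and Eif3f were the largest falls on this list too.

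Of 85 ribosome biogenesis genes 21 rose (24.7%) and 5 fell (5.88%) in gonadal fat, and 16 rose (18.8%) and 3 fell (3.53%) in subcutaneous fat, with medians of 0.37 and 0.25, against 0.076 and 0.066 over all genes. Tsr2, a chaperone of Rps26, rose by 2.36 and 2.13, and Rrp1b, a nucleolar factor, by 2.08 and 1.88. The polymerase I subunit gene Polr1e fell by 2.43 in gonadal fat, Rpf1 by 0.91 and 0.85, and Pes1 by 0.76 in subcutaneous fat. Of 36 regulators 7 rose and 7 fell in each depot (19.4% each). Cdkn1a, the p53 target p21, rose by 5.70 and 5.75. Rheb, the GTPase that activates mTOR, rose by 1.41 in gonadal fat and the ribosome stress kinase gene Map3k20 by 1.76 in subcutaneous fat. The kinase gene Dyrk2 fell by 1.92 and 1.69, and the translation repressor genes Eif4ebp2 by 1.49 in gonadal and Eif4ebp1 by 1.54 in subcutaneous fat.

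The 78 mitochondrial ribosomal protein genes offer a parallel set. In gonadal fat 6 rose (7.69%) and 3 fell (3.85%), in subcutaneous fat 3 rose and 3 fell (3.85% each), with medians of 0.17 and -0.12. Mrps6 rose by 2.93 and 2.58, Mrpl45 by 2.22 in gonadal and Mrps27 by 1.75 in subcutaneous fat. Mrpl43 fell by 1.02 and 1.28, Mrpl33 by 0.99 in gonadal and Mrps23 by 1.22 in subcutaneous fat. Between the depots none of the genes on the 6 lists was called.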

How the data were processed

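RNA of 12 libraries was quantified by the authors with Salmon 1.6.0 after Trim Galore 0.6.4 on mm10, per the submitters' processing notes, which also name DESeq2 1.30.1. The deposited tables hold estimated counts of reads per transcript (Salmon's NumReads, per the file headers), TPM and effective length for 140992 transcripts. Annotation release and strand setting: not given in the sources used here. The estimated counts were summed per gene with GENCODE M21 (1201 transcripts did not match) and rounded. The authors' TPM were summed per gene and used only to compare genes. The other deposited quantity, effective length, entered 1 alternative.

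The test was edgeR's robust quasi-likelihood test (edgeR 4.0.16, R 4.3.3; TMM, filterByExpr by group; 1 fit of 12 libraries, 15367 genes, Benjamini-Hochberg adjustment, threshold 0.05; common biological coefficient of variation 0.545), and with DESeq2 1.42.0 as an alternative. SE is the log2 fold change divided by the root of its F statistic. An error is an SD over libraries where SE is not written. The labels tie each library to 1 mouse, and PCR reads without molecular identifiers are not independent molecules.

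The members and lists were chosen with earlier results of these data known. Named are members called in any comparison, the 4 largest changes in each direction, the 5 highest and 3 lowest by TPM, paralogs with their standard copies, 8 members of special role, those failing the filter, and the 2 called genes of largest change in each direction of every pathway list; Rps14 and Rpl14 were added after their values were seen. Some genes that meet this rule are not reported here. Rps4l is a pseudogene in this annotation and was not a member. One listed symbol, Gcn1, did not match. Same-numbered libraries come from the same mouse, so they are paired. Deviations from group means correlated by -0.111 to 0.358 over 9 such pairs (mean 0.0844, against -0.0187 for different mice). A fit with mouse as a replicate block was an alternative. Other alternatives changed scaling, filter, transcripts, length offset and libraries; those with copies added and without 2 libraries together were chosen after seeing the data.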

Additional observations from a re-analysis of the deposited data

Results flagged for a closer look

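In 5 of the 120 groups of 4 library values examined, 1 library lay far from the other 3; chance gives about 1 in 20 groups. The blood library of mouse 2807 had the lowest Rps9 share of member reads in blood, 9.87%. The gonadal library of mouse 2668 had 23.0% of member reads outside protein-coding transcripts, the highest of its group by a small margin. The subcutaneous library of mouse 2846 had 55.6 CPM of Rplp2, below the rest of its group. The gonadal library of mouse 2683 was high for Rps2, with 71.0 CPM, and for Rps23, with 299 CPM.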

How the results depend on the processing

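The counts of calls moved more than the medians. With all alternatives taken 1 at a time, the median log2 fold change of the members stayed within its spread between libraries in every one of 23 settings. It ran from -0.25 to 0.14 in gonadal and from -0.50 to -0.24 in subcutaneous fat against blood. The spread for gonadal fat against blood (SD 0.34) includes gonadal 2683, so it cannot show that the median is stable without that library. Leaving gonadal 2683 out moved this median from 0.0076 to -0.25 and the members above 0 from 40 to 17. No setting called a member between the depots. For gonadal fat, DESeq2 called 8 members lower (10.3%, against 14.6% of all genes) and the effective-length offset 1 higher (1.28%, against 11.2%). The replicate block gave 0 higher (12.1% of all genes). Without subcutaneous 2846 and blood 2807 there were 5 higher (6.41%, against 18.6%). Leaving out 1 library gave 0 to 3 higher (9.63% to 18.4% of all genes) and 3 to 13 lower (7.52% to 13.5%). For subcutaneous fat, 1 member was higher with DESeq2 (1.28%, against 20.6% of all genes). With the effective-length offset 2 were higher (2.56%, against 12%), and 1 without those 2 libraries (1.28%, against 14%). Without the low-count filter 9 were lower (11.2%, against 4.67% of the 28788 genes then tested), and 9 without those 2 libraries (11.5%, against 9.27%). Leaving out 1 library gave 0 to 1 higher (9.75% to 15.5% of all genes) and 8 to 28 lower (7.29% to 12.2%). The large minus small subunit difference was -0.00071 with the replicate block in gonadal fat; leaving out 1 library gave -0.0018 to 0.19 there and -0.054 to 0.11 in subcutaneous fat. Rps3 in subcutaneous fat was 0.18 with the effective-length offset and Rps23 0.026 with protein-coding transcripts only, both above 0. The share of reads was 1.33% (blood) and 0.985% (subcutaneous) over protein-coding transcripts, 1.26% and 0.869% with copies added, and 1.39%, 1.29% (gonadal) and 1.05% over nuclear protein-coding genes. With copies added, blood (1.03% to 1.45%) and subcutaneous libraries (0.674% to 1.08%) overlapped, as they did over nuclear protein-coding genes. The subunit ratio with pseudogene reads added was 1.51 in gonadal and 1.46 in subcutaneous fat. The cause of these moves was not tested. Besides the calls named with the results, the replicate block changed no call of a named member. The shallow subcutaneous library of mouse 2846 limits the precision for members of few reads.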
